A study of Homo sapiens with 6 samples.

Results

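Simple keratins and claudins, the filament and tight-junction proteins that mark epithelial cells, were followed in NCI-H1299 cells with FuHsi knocked down and in control cells. The members were 10 genes fixed by name, KRT7, KRT8, KRT18, KRT19, KRT80, KRT81, CLDN1, CLDN4, CLDN7 and CLDN12, out of 60617 genes in the count table, and each name matched 1 Ensembl identifier. NCI-H1299 is an established human lung cancer line, given in the labels as lung adenocarcinoma, and all libraries came from this line grown in RPMI1640 with serum. Knockdown cells gave 3 libraries, which have Sh1 in their titles and a genotype label of FuHsi knocked down, and control cells gave 3 libraries, which have Puro in their titles and the genotype label WT. The series asks about a role of FuHsi in the nucleolus, and the level of FuHsi itself is not analysed here. What Sh1 and Puro stand for, whether the control carries a construct and whether the libraries are separate cultures is not in the labels. The p-values are therefore about the spread of these libraries alone, which may be technical.

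Keratins build intermediate filaments from obligate pairs of a type I and a type II chain. In simple, single-layered epithelia the main pair is KRT18 (type I) with KRT8 (type II), joined in many ducts and glands by KRT19 (type I) and KRT7 (type II). Claudins are small proteins that cross the membrane several times and form the strands of the tight junction, where their mix sets which ions and solutes pass between cells. Cancer cells that have taken on mesenchymal features often keep KRT8 and KRT18 while they lose E-cadherin and many claudins and gain vimentin.

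The data were read counts per gene. Library totals ran from 24231515 to 27900051 counts in knockdown and from 30735547 to 34306849 in control, so every control library was deeper. Levels are given in CPM, the usual per-library scaling of counts by their total, after TMM scaling, which sets libraries to a common level through the bulk of genes, and fold changes as log2 of knockdown over control with their standard error (SE). A gene was called where edgeR's quasi-likelihood test gave a Benjamini-Hochberg adjusted p under 0.05 over the 17223 genes that passed a filter on low counts. Markers of epithelial and lung cells were uneven in these libraries. KRT8 and KRT18 were abundant, while EPCAM, an epithelial adhesion protein, had at most 14 counts and CDH1 (E-cadherin) at most 8 in any library. NKX2-1, the lung lineage factor, had at most 11, and SFTPA1, SFTPC, SFTPD and SCGB1A1, products of mature lung epithelium, had 0 in all 6. Of 9 lung markers, AGER, NAPSA and FOXJ1 passed the filter, and AGER reached 84 counts. VIM (vimentin) was abundant.

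Of the 10 members, 7 passed the filter on low counts. KRT7 and CLDN1 rose, KRT8, KRT80 and CLDN12 fell, and KRT18 and CLDN4 were not called. KRT19, KRT81 and CLDN7 were at or near 0 and were not tested. The calls are 2 higher and 3 lower of 7, where 30.7% of all tested genes were higher and 30.9% lower, or 61.6% called in all. Knockdown and control values did not overlap for 5 of the 7, where the same held for 65.3% of all tested genes. These shares are close to the background, so the counts say nothing particular about the members. The median log2 fold change of the 7 was -0.06, beside 0.03 over all tested genes.

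**Figure D1:**
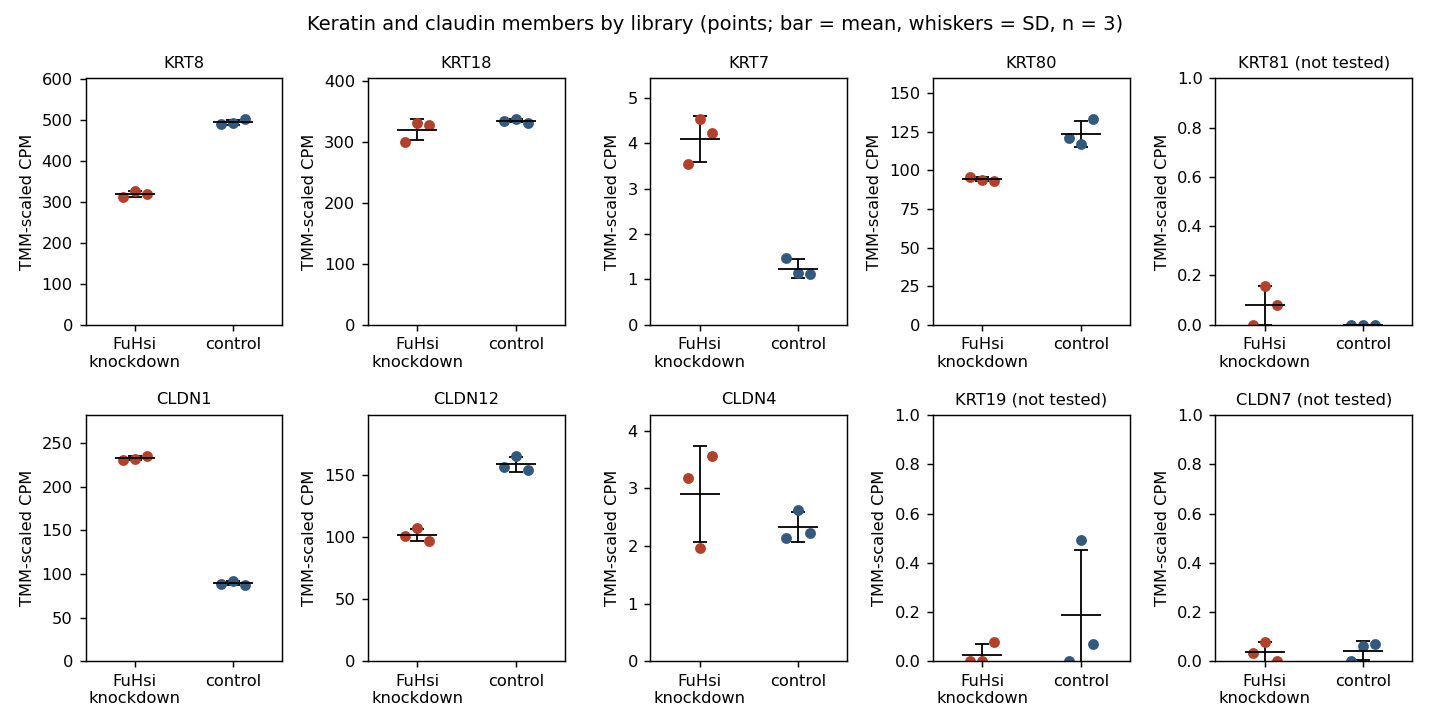
TMM-scaled CPM of each member in the 3 FuHsi knockdown libraries (left in each panel) and the 3 control libraries (right). Points are libraries, bars are means and whiskers are SD (n = 3). KRT8, KRT80 and CLDN12 lie lower in knockdown and CLDN1 and KRT7 higher, with no overlap, while KRT18 and CLDN4 overlap and KRT81, KRT19 and CLDN7 stay under 1 CPM.

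KRT8 was lower in knockdown, while KRT18, its filament partner, was nearly level. KRT8 (ENSG00000170421, GRCh38 chromosome 12, 52897187 to 52949954, minus strand) had 312, 327 and 320.3 CPM in the knockdown libraries, against 489, 493 and 501 CPM in the control libraries. All knockdown values were below all control values. KRT8 fell to 64.8% of control (log2 fold change -0.63 ± 0.03, SE; edgeR adjusted p 1.41e-25). KRT18 (ENSG00000111057, chromosome 12, 52948871 to 52952901, plus strand) had 300.2, 332 and 328 CPM in knockdown, against 335, 337 and 332 CPM in control. Knockdown replicate 1 was the lowest of the 6 libraries, and the other libraries lay close together. The difference was -0.06 ± 0.03 (SE) on the log2 scale, with an edgeR adjusted p of 0.104. That call was not stable: KRT18 was called lower without knockdown replicate 2 (-0.10, adjusted p 0.0131) or replicate 3 (-0.09, adjusted p 0.0403), and called higher with scaling by library size alone (0.09, adjusted p 0.017), which moved the median of all genes to 0.18.

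KRT8 and KRT18 lie side by side on chromosome 12 on opposite strands, and their annotated gene spans overlap by 1084 bases. In exons, 7.6% of KRT8 bases and 16.3% of KRT18 bases are shared with the other gene. Whether counting used the strand is not stated, so reads from the shared stretch cannot be assigned with certainty. Because levels of different genes compare only per length, CPM was divided by the kilobases (kb) of annotated exon. The per-kb ratio of KRT8 to KRT18 was 0.487, 0.461 and 0.456 in knockdown, against 0.682, 0.684 and 0.706 in control. The ratio was thus lower in every knockdown library than in any control library, a comparison that does not depend on scaling between libraries. Which of the pair was more abundant in control depended on the length used, since with the longest annotated transcript the mean ratio was 0.73 in knockdown and 1.08 in control.

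KRT80, a type II keratin found at cell borders and linked to desmosomes, moved less than KRT8. KRT80 (ENSG00000167767, chromosome 12, 52168996 to 52192000, minus strand) had 95.9, 94.0 and 93.2 CPM in knockdown, against 121, 117 and 133 CPM in control. The knockdown libraries were tightly grouped below the control range. KRT80 fell to 76.4% of control (log2 fold change -0.39 ± 0.04, SE, edgeR adjusted p 2.04e-11).

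KRT7, the type II keratin of ducts and of many lung adenocarcinomas, was scarce but higher in knockdown. KRT7 (ENSG00000135480, chromosome 12, 52232520 to 52252186, plus strand) had 105, 115 and 108 counts in knockdown, against 48, 37 and 32 counts in control. Those counts correspond to 3.55, 4.53 and 4.23 CPM in knockdown, against 1.47, 1.14 and 1.11 CPM in control, with no overlap. KRT7 rose 3.29-fold (log2 fold change 1.72 ± 0.23, SE, edgeR adjusted p 1.65e-09). This was the largest fold change of the 7 tested members and also the one with the widest SE. Its exons share 7.7% of bases with KRT7-AS and KRT87P, which lie on the opposite strand. Even after the rise, KRT7 stood at 1.00 ± 0.123 CPM per kb in knockdown and 0.303 ± 0.0487 in control, beside 46.5 ± 1.08 and 71.8 ± 0.935 for its type II relative KRT8 (SD, n = 3 each).

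KRT19, the smallest type I keratin, and KRT81, a hair keratin of type II also seen in some carcinomas, were not measurable at this depth. KRT19 (chromosome 17, 41523617 to 41528308, minus strand) had 0, 0 and 2 counts in knockdown, against 0, 16 and 2 counts in control, so control replicate 2 alone held most of its reads. KRT81 (chromosome 12, 52285913 to 52291534, minus strand) had 0, 4 and 2 counts in knockdown, against 0 counts in each control library, where a count of 0 allows up to 0.0917 to 0.104 CPM (3 counts per library, counting error only). No fold change is given for either. KRT86 and KRT83, near-identical hair keratin neighbours that could take reads of KRT81, had at most 8 and 2 counts.

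The 5 chromosome 12 members, KRT80, KRT7, KRT81, KRT8 and KRT18, lie within 784 kb, and within that stretch KRT7 rose, KRT80 and KRT8 fell and KRT18 was not called. KRT80 and KRT7 are separated by 40.5 kb and moved in opposite directions. Of 49 other keratin genes listed, 4 were tested and 31 had no count in any library. KRT34 was higher (log2 fold change 0.86) and KRT32 lower (-1.32), at means of 2.16 and 0.3 CPM in knockdown and 1.19 and 0.748 CPM in control. Both are named because they were the called ones, after their values were seen. KRT32 met the low-count filter in all libraries of control only, the group where it was higher. KRT34 lost its call without knockdown replicate 2 (edgeR adjusted p 0.0619), and KRT32 lost its call without knockdown replicate 1, knockdown replicate 2 or control replicate 1 (adjusted p 0.0576, 0.0622 and 0.226) and with DESeq2 (0.0747). KRT10 and KRT15, type I keratins of stratified epithelium, were not called, at 20.3 and 8.69 CPM in knockdown and 19.1 and 7.4 CPM in control, though library size alone called both higher (0.25 and 0.38) and KRT15 was called without control replicate 2 (0.35, adjusted p 0.0375). Summed per kb over the 10 keratins taken, the 6 members and these 4, the level was 181 ± 6.36 in knockdown and 216 ± 2.23 in control (SD, n = 3 each). KRT18 made up 55.0% ± 1.12 of that sum in knockdown and 48.2% ± 0.82 in control, and KRT8 made up 25.7% ± 0.377 in knockdown and 33.3% ± 0.168 in control. With the longest transcript as the length, KRT18 made up 50.4% in knockdown and 42.5% in control. KRT8 then made up 36.7% in knockdown and 45.8% in control, so the order of the pair in control turned with the length used.

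Simple keratins have many processed pseudogenes, which can draw reads from the parent gene. The table held 51 KRT8 pseudogene rows, of which 22 had a count, and 67 KRT18 rows, of which 33 had a count. The KRT18 copies together held at most 1.33% of the KRT18 count in any library. The KRT8 copies held from 5.91% to 13.4% of the KRT8 count, and KRT8P12 on chromosome 3 held most of that. KRT8P12 moved against its parent: it had 35.0, 36.7 and 37.0 CPM in knockdown, against 24.6, 26.3 and 24.7 CPM in control, with no overlap. KRT8P12 rose by 0.52 ± 0.07 (SE) on the log2 scale, with an edgeR adjusted p of 1.47e-09. KRT8P3, the next most abundant copy, was lower by a log2 fold change of -0.67 with an edgeR adjusted p of 0.047, a call that was lost in 11 of 14 alternatives (adjusted p 0.0247 to 0.176 over all of them), among them those without knockdown replicate 1 or 3 or control replicate 1 or 2. With all KRT8 copies added to KRT8, the log2 fold change of the sum was -0.54. How far reads were split between KRT8 and KRT8P12 was not tested. The transcribed copy aligned to 1390 bases of the KRT8 messenger RNA (both from GENCODE v29) at 90.6% identity, and the longest run without a difference was 53 bases. KRT8P12 also shares 6.9% of its exon bases with KPNA4 on the opposite strand.

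CLDN1 and CLDN12, the abundant claudin members, moved in opposite directions. CLDN1, a barrier-forming claudin needed for the skin barrier (ENSG00000163347, chromosome 3, 190305701 to 190322475, minus strand), had 231, 232 and 235 CPM in knockdown, against 89.1, 91.7 and 87.2 CPM in control. The values within each group were close and the groups far apart. CLDN1 rose 2.60-fold (log2 fold change 1.38 ± 0.04, SE, edgeR adjusted p 4.35e-38). CLDN12, an atypical claudin that lacks the usual scaffold-binding tail (ENSG00000157224, chromosome 7, 90383721 to 90513402, plus strand), had 101, 107 and 97.1 CPM in knockdown, against 156, 165 and 154 CPM in control. Every knockdown value was below every control value. CLDN12 fell to 64.2% of control (log2 fold change -0.64 ± 0.04, SE, edgeR adjusted p 1.32e-20). CLDN12 shares 16.3% of its exon bases with other genes, GTPBP10 and CDK14 among them, and those reads are uncertain. CLDN1 shares none.

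These opposite changes altered the mix of claudin transcripts, and claudin protein was not measured here. Per kb of exon, the ratio of CLDN1 to CLDN12 was 4.21, 3.97 and 4.46 in knockdown, against 1.05, 1.03 and 1.04 in control. Of the summed per-kb level of 12 claudins, the 4 members and 8 others that were tested, CLDN1 made up 69.4% ± 0.955 in knockdown and 39.8% ± 0.386 in control. CLDN12 made up 16.5% ± 0.758 in knockdown and 38.3% ± 0.433 in control (SD, n = 3 each). The sum itself was 91.5 ± 0.47 CPM per kb in knockdown and 61.3 ± 1.48 in control. With the longest transcript as the length, the mean CLDN1 to CLDN12 ratio was 2.35 in knockdown and 0.578 in control, so the order of the pair in control turned with the length used, and the order in knockdown did not. CLDN1 then made up 59.8% of the sum in knockdown and 29.5% in control, and CLDN12 25.5% and 51.1%. The sum was then 112 CPM per kb in knockdown and 86.9 in control.

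**Figure D2:**
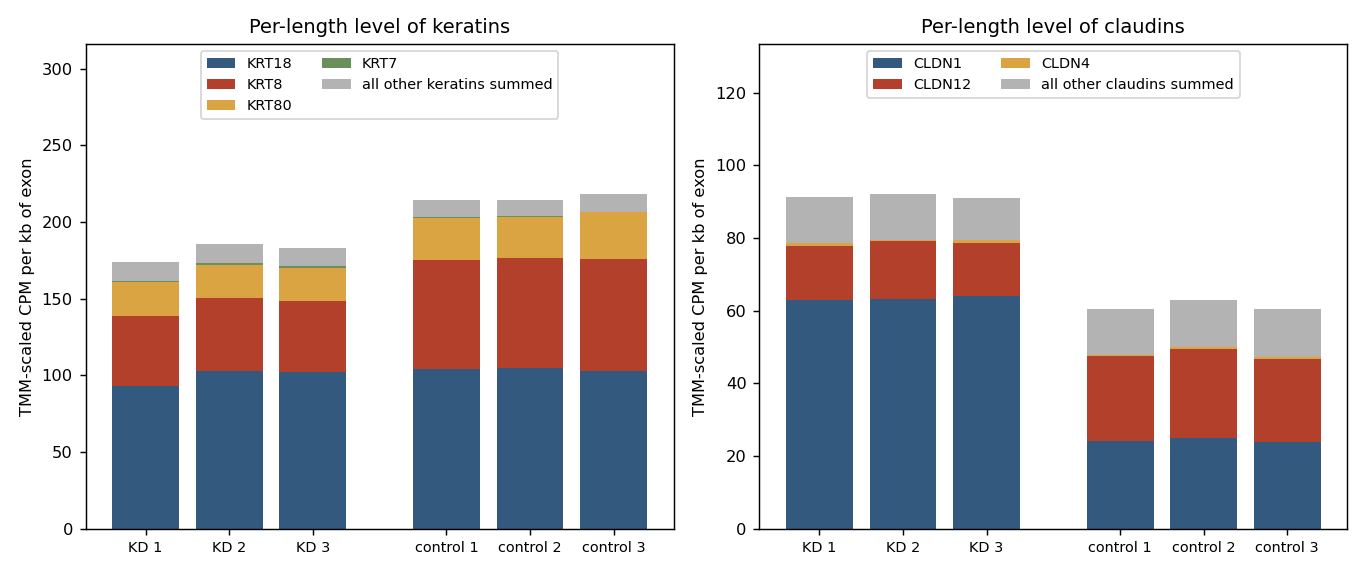
Stacked TMM-scaled CPM per kb of annotated exon for keratins (left) and claudins (right), 1 bar per library, with the FuHsi knockdown libraries (KD) left of the control libraries. CLDN1 made up 69.4% of the claudin sum in knockdown and 39.8% in control, and KRT8 made up 25.7% of the keratin sum in knockdown and 33.3% in control.

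The start regions of CLDN1 and CLDN12 are shown because these genes changed in opposite directions. RefSeq windows on GRCh38.p14, from 250 bases before to 50 after the start, were at hand for 5 members. Capitals mark GGGCGG, the core of the GC box bound by SP and KLF factors, on either strand.
CLDN1 (chr3:190322397-190322696, minus strand): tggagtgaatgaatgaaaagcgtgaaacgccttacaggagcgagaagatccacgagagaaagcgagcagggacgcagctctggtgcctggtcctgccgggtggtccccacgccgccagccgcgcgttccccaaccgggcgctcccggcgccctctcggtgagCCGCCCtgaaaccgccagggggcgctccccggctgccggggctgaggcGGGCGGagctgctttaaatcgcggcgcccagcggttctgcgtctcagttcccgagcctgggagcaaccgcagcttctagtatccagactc
CLDN12 (chr7:90403211-90403510, plus strand): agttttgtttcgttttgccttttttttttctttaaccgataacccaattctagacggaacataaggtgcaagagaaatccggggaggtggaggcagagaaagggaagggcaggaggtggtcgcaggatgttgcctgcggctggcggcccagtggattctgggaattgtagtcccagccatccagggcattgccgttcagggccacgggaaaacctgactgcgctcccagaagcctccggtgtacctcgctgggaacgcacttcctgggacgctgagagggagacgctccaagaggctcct
CLDN1 held GGGCGG at -40 and, on the other strand, at -88 from its start, and CLDN12 held none. The motif is in 45.0% of 35116 windows. The other motifs searched on both strands were TATAAA (11.5% of windows), the AP-1 site TGANTCA (7.71%), the grainyhead site AACCNGTT (1.73%), the E-box CACCTG (20.6%) and the interferon-type element of GAAA, any 2 bases and GAAA (3.57%). None of these was in the CLDN1, CLDN12 or KRT8 window. The KRT8 window (chr12:52926420-52926719, minus strand) lies inside the annotated gene span. It does not cover the outermost annotated KRT8 start at 52949954, which was not searched. CLDN4 held TGANTCA at 2 places and GGGCGG, and of the 2 CLDN7 windows 1 held CACCTG and GGGCGG and the other the interferon-type element. The CLDN1 window had a GC content of 67.0% and 31 CpG pairs, and the CLDN12 window 56.0% and 15.

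The outermost annotated start of CLDN1 lies beside that of CLDN16, a claudin of the kidney that carries magnesium, which runs the other way. The gap between the annotated spans is 65 bases. The CLDN16 span runs from 190322541 to 190412143, and counts per gene do not show where in it transcripts started. CLDN16 had 36, 25 and 36 counts in knockdown, against 12, 13 and 8 counts in control, with no overlap. It rose by 1.77 ± 0.42 (SE) on the log2 scale, with an edgeR adjusted p of 0.00019. Only knockdown met the low-count filter in all its libraries, so CLDN16 entered the test through the group where it was higher. With no filter the rise was 1.75 (edgeR adjusted p 0.000255). CLDN16 was low, at 1.2 ± 0.212 CPM in knockdown and 0.348 ± 0.064 CPM in control (SD, n = 3 each), and was singled out after its values were seen.

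CLDN4, a claudin of tight epithelia, was scarce and was not called. CLDN4 (ENSG00000189143, chromosome 7, 73799542 to 73832693, plus strand) had 3.18, 1.97 and 3.56 CPM in knockdown, against 2.14, 2.62 and 2.22 CPM in control. Knockdown replicate 2 was the lowest of the 6 libraries and the other knockdown libraries the highest. The log2 fold change was 0.32 ± 0.22 (SE) with an edgeR adjusted p of 0.212, and 0.52 with an adjusted p of 0.048 without knockdown replicate 2. CLDN3, which lies 29.3 kb away and is often expressed with CLDN4 in epithelia, fell by 1.15 on the log2 scale (edgeR adjusted p 0.00115), at 0.817 ± 0.0976 CPM in knockdown and 1.83 ± 0.482 CPM in control (SD, n = 3 each). CLDN7, a claudin of simple epithelia (chromosome 17, 7259903 to 7263983, minus strand), had 1, 2 and 0 counts in knockdown, against 0, 2 and 2 counts in control, and no fold change is given. Of 20 other claudins, 8 were tested, of which CLDN16 was higher and CLDN3 and CLDN9 were lower. CLDN9 met the low-count filter in all libraries of control only, and CLDN16 in all of knockdown only. Each of these 2 thus entered the test through its higher group. CLDN9 (-1.69, from -2.84 without knockdown replicate 1 to -1.30 without knockdown replicate 3) had at most 17 counts and lost its call without knockdown replicate 2 or 3 or control replicate 1 (adjusted p 0.0812, 0.11 and 0.0691), with DESeq2 (0.0921) and with no filter (0.0501). CLDN15, the most abundant of these others, had 26.9, 26.1 and 25.9 CPM in knockdown, against 25.4, 25.5 and 24.1 CPM in control, and was not called except with library size alone (0.23). CLDN3, CLDN9 and CLDN15 were named after their values were seen.

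**Figure D3:**
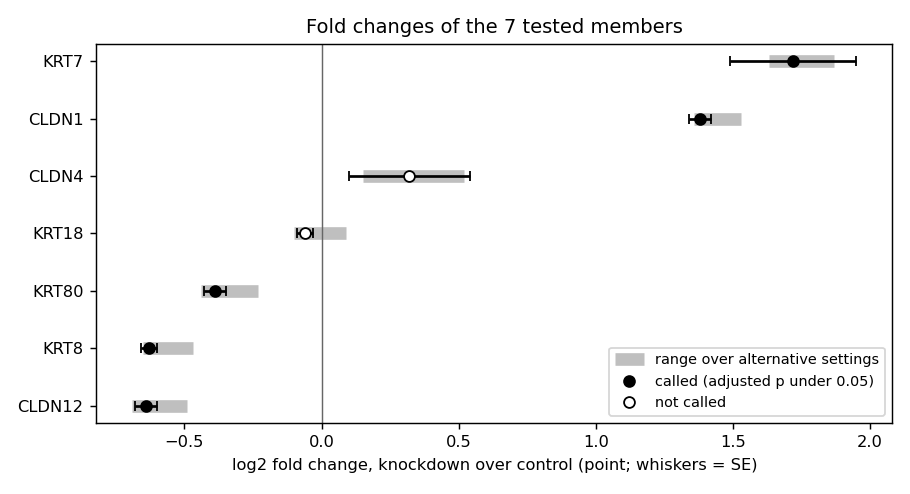
Log2 fold change of knockdown over control for the 7 tested members (points, whiskers are SE), with the range over the alternative settings as a grey band. KRT7 and CLDN1 stay above 0, KRT80, KRT8 and CLDN12 below 0, and KRT18 has a band from -0.10 to 0.09 that crosses 0.

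Fold changes in these libraries varied with abundance, which bears on how the members read. KRT8, KRT18, KRT80, CLDN1 and CLDN12 were all in the highest of 5 equal classes of tested genes by mean abundance, where 26.8% of genes were higher, 60.5% were lower and the median log2 fold change was -0.21. The falls of KRT8, KRT80 and CLDN12 were in the more common direction for that class, and the rise of CLDN1 was in the less common one. KRT7 and CLDN4 were in the class next to the lowest, where 33.9% rose, 14.5% fell and the median was 0.21.

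Partners of the keratins were mixed. Of 21 genes of desmosomes, hemidesmosomes and keratin linkage, 16 were tested. Of these, 4 rose and 8 fell, where 30.7% of all tested genes rose and 30.9% fell, and the median log2 fold change was -0.16. DSG2, the desmosomal cadherin of simple epithelia, rose by 0.79 on the log2 scale, at 114 ± 1.22 CPM in knockdown and 66.0 ± 2.83 CPM in control (SD, n = 3 each). COL17A1, a hemidesmosome collagen, rose by 0.89. ITGB4, the integrin chain that ties keratins to the hemidesmosome, fell by 0.89, and PPL (periplakin) fell by 0.68. DSP (desmoplakin), which anchors keratins at desmosomes, fell by 0.29, PLEC (plectin), a linker of filaments, fell by 0.21, and JUP (plakoglobin) rose by 0.50. The last 3 genes were picked for their roles after their values were seen.

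Of 15 other intermediate filament genes, 10 were tested. Of these, 7 fell, 1 rose and 2 were not called, where 30.9% of all tested genes fell and 30.7% rose, and the median was -0.57. Of the fallen genes, VIM, INA, LMNA, LMNB1 and LMNB2 are in the highest abundance class, in which 60.5% of genes fell. NEFL and NEFH also fell (log2 fold changes -0.75 and -0.72), and their abundance class is not given here. LMNA, LMNB1, NEFL and NEFH were named after their values were seen. VIM, the mesenchymal filament protein, had 835, 871 and 812 CPM in knockdown, against 1360.2, 1338.5 and 1400.8 CPM in control. It fell to 61.4% of control (log2 fold change -0.70, edgeR adjusted p 2.29e-29), a change close in size to that of KRT8. The per-kb ratio of VIM to KRT8 was 3.50 ± 0.101 in knockdown and 3.69 ± 0.0562 in control (SD, n = 3 each). VIM shares 24.4% of its exon bases with other genes on the opposite strand. LMNB2, a nuclear lamin, fell by 1.11, and INA (internexin), a neuronal filament, fell by 0.86. BFSP1, a lens filament protein, was higher by 0.33 and lost its call without knockdown replicate 2 or control replicate 1 (adjusted p 0.0841 and 0.0571).

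Genes that work with claudins moved both ways. Of 28 tight junction partners, 24 were tested. Of these, 12 rose, 4 fell and 8 were not called, where 30.7% of all tested genes rose and 30.9% fell, and the median was 0.18. JAM3, a junctional adhesion molecule, rose by 0.79, at 45.8 ± 1.92 CPM in knockdown and 26.4 ± 1.84 CPM in control (SD, n = 3 each). AMOT (angiomotin) rose by 0.63, and MAGI3 and PRKCZ, a scaffold and a polarity kinase, fell by 0.44 and 0.36. TJP1, the main scaffold that binds claudin tails, rose by 0.44, with 277, 270.4 and 275 CPM in knockdown, against 202, 205 and 199 CPM in control. OCLN (occludin) was higher by 0.26 with an edgeR adjusted p of 0.0168, a call lost without knockdown replicate 1 or control replicate 3 (adjusted p 0.127 and 0.0859) and with DESeq2 (0.0957). TJP1 and OCLN were likewise picked after their values were seen.

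Of 10 adherens junction genes, 8 were tested. Of these, 2 rose and 2 fell, against the same background, and the median was -0.03. NECTIN3 and NECTIN2, adhesion molecules of that junction, rose by 0.54 and 0.28. NECTIN1 fell by 0.48, a call lost with library size alone (edgeR adjusted p 0.0505), and CTNNA1 (alpha-catenin) was at -0.08, turned to 0.07 with library size alone, was at -0.02 with upper-quartile factors (adjusted p 0.538) and lost its call without knockdown replicate 1 or control replicate 2 (adjusted p 0.0732 and 0.0813). Of 19 regulators of epithelial and mesenchymal genes, 12 were tested. Of these, 7 rose and 2 fell, where 30.7% of all tested genes rose and 30.9% fell, and the median was 0.79. KLF4, an epithelial transcription factor, rose by 2.31, at 121 ± 16.1 CPM in knockdown and 24.3 ± 2.07 CPM in control (SD, n = 3 each). ZEB2, a repressor of epithelial genes, rose by 1.70, at 75.0 ± 3.23 CPM in knockdown and 23.1 ± 2.45 CPM in control. TWIST1 and TFAP2A were lower by log2 fold changes of -0.36 and -0.20, and both calls were lost with library size alone (adjusted p 0.124 and 0.616). TWIST1 also lost it without control replicate 3 (0.0582) and TFAP2A without control replicate 2 (0.0512) and with upper-quartile factors (0.0872). The other rises were TP63 (2.24), ESRP2 (1.22), SNAI2 (1.21), KLF5 (0.83) and ZEB1 (0.45), and GRHL1 was not called (0.01). The 7 regulators not tested stayed at or under 0.203 CPM. Among them GRHL2 and OVOL2, factors that uphold the epithelial state, had at most 2 and 4 counts in any library. The genes in these last 3 sentences were named after their values were seen. Factors with opposite known roles thus rose together, and their part in the keratin and claudin changes was not tested. These lists were not tested as sets. In bulk RNA, fewer cells of a kind and less RNA per cell cannot be told apart.

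**Figure D4:**
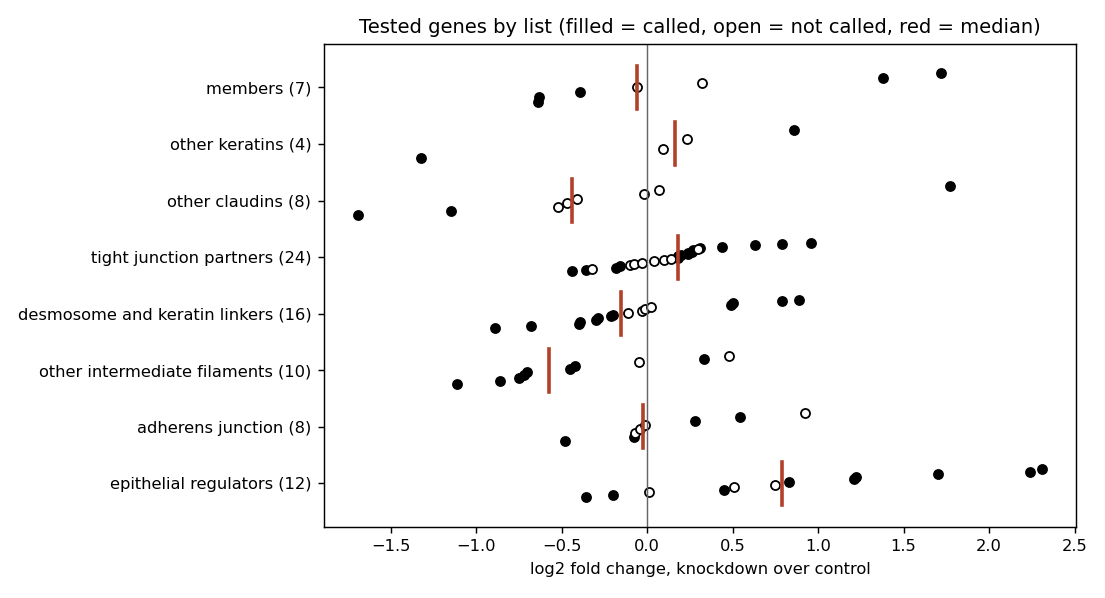
Log2 fold change of every tested gene in the member list and in 7 lists of related genes, with the number tested in parentheses. Filled points were called, open points were not, and the red line is the list's median, which runs from -0.57 for other intermediate filaments to 0.79 for epithelial regulators.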

How the data were processed

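RNA of 6 NCI-H1299 libraries was sequenced from total RNA (RNAiso Plus, TruSeq kit, per the labels' protocols). The authors deposited 1 table of whole-number counts per Ensembl gene, not normalized. The build hg38 and the tools featureCounts 2.0.1, STAR 2.7.0d, DESeq2 1.30.1 and Trim Galore 0.6.6 are named in the submitters' processing notes. Annotation, strand setting and treatment of multiply aligned reads were not given in the sources used here. From the counts, edgeR 4.0.16 in R 4.3.3 filtered genes (filterByExpr, minimum count 10), scaled by TMM and fitted group alone with robust quasi-likelihood. Lengths, overlaps and coordinates came from GENCODE v29 on GRCh38. Alternatives were other scalings, DESeq2 1.42.0, limma-voom 3.58.1, no filter, thinning to 24231515 counts, a replicate block, leaving out each library, and summing copies. The gene test was also run on counts simulated from its own fitted spread, with rises and falls balanced. Such counts cannot test the scaling between libraries or whether the libraries are separate cultures, and no result here rests on them.

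All members were named whatever their values. From each related list up to 2 rises and 2 falls were taken, the largest among called genes with a mean log2 CPM of at least 1, plus VIM, CDH1, EPCAM and the 2 most abundant copies of each keratin. Among the genes named outside this rule, after their values were seen, were KRT10, KRT15, CLDN3, CLDN9, CLDN15, LMNA, LMNB1, NEFL and NEFH. Members and lists were chosen with earlier results of these data known. Same-numbered libraries deviated from their group means with correlations of -0.000751, -0.00642 and -0.0235, so the numbers were not treated as pairs. A sequence stretch of KRT8 and its copy is not reported here.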

Additional observations from a re-analysis of the deposited data

How the results depend on the processing

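KRT7, KRT8, KRT80, CLDN1 and CLDN12 kept their direction and call under every alternative run, over ranges of 1.63 to 1.87, -0.65 to -0.47, -0.44 to -0.23, 1.36 to 1.53 and -0.69 to -0.49 on the log2 scale. KRT18 turned to 0.09 with library size alone, and ran from -0.10 to -0.02 when 1 library was left out. CLDN4 ran from 0.15 to 0.52 on the same exclusions. With the replicate block, KRT8 was at -0.63, CLDN1 at 1.38 and CLDN12 at -0.64, and no member's call changed. CTNNA1 turned to 0.07 with library size alone. Members called ran from 2 to 3 higher and from 3 to 4 lower. Over all genes, 4547 to 6986 were higher and 3855 to 5401 lower; library size alone made 64.4% of called genes higher, against 49.9% with TMM. KRT19 and KRT81 stayed untested when summed with their copies, so those alternatives gave no value. The SE was 0.23 for KRT7 and 0.22 for CLDN4, and KRT19, KRT81 and CLDN7 could not be compared.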

Other observations

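The 3 genes nearest to KRT7 in row-centred log2 CPM over the 6 libraries were ZNF436, PDE3A and SCN9A, at distances of 0.14, 0.15 and 0.19, and those nearest to CLDN12 were OSMR, SCD and MYBBP1A, each at 0.05. This describes likeness among 15598 genes over 3 libraries a group.

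Of 9 lung epithelial markers, 3 were tested: NAPSA and FOXJ1 were higher, with at most 20 and 16 counts in knockdown and 4 and 6 in control, and AGER was lower. Of 13 markers of other cells, 7 were tested and PTPRC, DCN and SYP were higher, with the list summing to 9.62 to 11.9 CPM in knockdown and 8.56 to 9.37 CPM in control. PTPRC lost its call without knockdown replicate 2 or control replicate 2 or 3 (edgeR adjusted p 0.0887, 0.0918 and 0.0546), and DCN without knockdown replicate 3 or control replicate 1 or 3 (0.12, 0.0866 and 0.0712). Both calls were also lost with DESeq2 (adjusted p 0.07 and 0.0767). These genes were named after their values were seen. NAPSA, FOXJ1, PTPRC and DCN met the low-count filter in all libraries of knockdown only. Genes this scarce in control could thus enter the test only as rises, so their shared direction says little.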
